A study of Schizosaccharomyces pombe with 72 samples.

Results

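The wild-type (WT) baseline of this fission yeast (Schizosaccharomyces pombe) series is its 15 WT RNA-seq libraries out of 72 libraries in all, chosen by their label alone. The remaining libraries come from strains with deleted or altered nucleosome remodelers, the ATP-driven enzymes that move and space nucleosomes, or without prf1, a gene of transcription elongation, and the WT libraries are the level against which those strains are read. The WT strain was YZH_001, of mating type h+ and carrying ade6-M216, ura4-D18 and leu1-32, grown untreated in rich YES medium at 32 °C to mid-log phase (OD600 about 0.5). The 15 libraries fall into 5 groups of 3 from 4 experiments: wt-expD, wt-expC, wt-expB and, within experiment A, batch 2 (wt-expA-b2) and batch 1 (wt-expA-b1). The strain and growth are the same by label in all 5 groups, so whatever differs between the experiments in growth, extraction, library preparation or sequencing cannot be told apart. For a comparison outside the WT libraries, the 3 hrp1Δhrp3Δ libraries of experiment B were used, which come from strain YJY_061 with the same ade6, ura4 and leu1 alleles and with both CHD-family remodeler genes deleted.

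Antisense transcription reads a gene from the strand opposite to its mRNA. In compact genomes such as that of S. pombe it arises from bidirectional promoters, from read-through of a convergent neighbour and from cryptic start sites inside genes, and ordered nucleosomes and RNA decay keep most of it low. The table of each library lists every annotated transcript and, with the suffix .rc, its reverse complement, 13994 entries in all from 6997 transcripts. An .rc entry of 1 of the 5112 protein-coding genes is called its antisense entry here. Of the protein-coding entries, 98.2% have the same length as the coding sequence annotated in RefSeq. They are therefore taken to hold coding sequence without UTRs, and their antisense entries cover the same stretch. Levels compared between entries are given in TPM, which corrects for effective length, and levels of 1 entry compared between libraries in CPM, its estimated counts scaled to the total of the library.

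The libraries held between 1127427 and 14320852 estimated counts, with wt-expA-b1 replicate 2 the shallowest and wt-expC replicate 1 the deepest. Replicate 3 of wt-expD stood apart from the rest. The correlation of its log profile with the median WT profile was 0.692, against 0.945 to 0.991 for the other 14 libraries, although its 1972497 counts exceeded those of 2 libraries of wt-expA-b1. Results that rest on it are given with and without it where both were computed. The ura4 entry was at 0 in all 15 libraries, while ade6 lay between 106 and 270 CPM and leu1 between 651 and 1282 CPM in the 14 libraries. Ribosomal RNA took 6.36% of the counts in wt-expC replicate 2, against 0.507% to 1.60% in the other 13 of the 14 libraries. Of the P-cell markers that go with h+, map2 and map3 were measured at low levels and the mat1-P genes could not be matched to an entry. Their summed level was 3.25 to 10.7 CPM in the 14 libraries. The 8 M-cell markers summed to 44.9 to 147 CPM. Of these, mam1 and mam3 averaged 76.8 and 51.6 CPM in wt-expC and 18.1 and 26.4 CPM in wt-expB. The markers mam2 and mfm2 averaged at most 6.36 CPM in these groups, and mat1-Mc, mat1-Mi and mfm3 were at or near 0.

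Antisense entries held about 1% of the WT counts, and no difference in that share between the experiments passed the test. It was 1.23% and 1.12% in wt-expD replicates 1 and 2 and 0.692% (95% Wilson interval 0.681% to 0.704%) in wt-expD replicate 3. It averaged 1.14% ± 0.0757 in wt-expC, 1.06% ± 0.0824 in wt-expB, 1.12% ± 0.0908 in wt-expA-b2 and 1.00% ± 0.0612 in wt-expA-b1 (SD, n = 3 each). The 14 libraries other than wt-expD replicate 3 spanned 0.963% to 1.23%, and every group overlapped at least 1 other. An exact permutation test over 1401400 partitions of the libraries gave p = 0.726 for a difference among the 5 groups and p = 0.156 without wt-expD replicate 3. Intervals cover counting error only, because PCR copies of a molecule were not told apart.

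**Figure D1:**
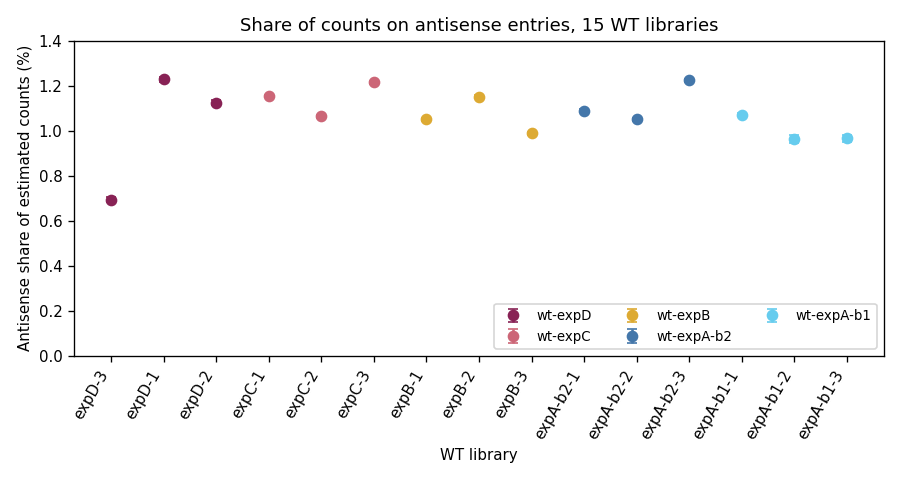
Share of estimated counts on antisense entries (y axis, percent) in each of the 15 WT libraries (x axis), coloured by group, with 95% Wilson intervals as bars. Replicate 3 of wt-expD sits at 0.692%, below the other 14 libraries, which lie between 0.963% and 1.23%.

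Entries over genes with no annotated transcript on the other strand were also counted apart. These 518 entries (10.1% of the antisense entries) held 0.0773% ± 0.0148 of counts in wt-expD, 0.0786% ± 0.00285 in wt-expC, 0.0652% ± 0.00362 in wt-expB, 0.0862% ± 0.0133 in wt-expA-b2 and 0.0598% ± 0.00460 in wt-expA-b1 (SD, n = 3 each). The same permutation test gave p = 0.0361 for this share over the 15 libraries. That includes wt-expD replicate 3, at 0.0605%, and this share was not tested without it. The p is not corrected for the other tests of a share, among them an exact permutation p = 0.300 for the antisense share of TPM. Batch 2 of experiment A was the highest group, and its lowest library, at 0.0750%, lay above all 6 libraries of wt-expB and wt-expA-b1, the highest of which was at 0.0694%.

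The sense transcriptome of WT cells was led by ribosomal proteins when ranked per length. Of the 10 protein-coding entries with the highest median TPM over the 15 libraries, 9 encode ribosomal proteins (rpl4101, rpl39, rpl4102, rpl29, rps21, rps27, rps29, rps2502 and rps3001). The remaining entry, gpm1, encodes the glycolytic phosphoglycerate mutase, with a median of 7988 TPM. Ribosomal protein genes made up 38 of the top 50 by TPM, although the 139 of them are 2.72% of protein-coding genes. Together they held 38.2% to 59.6% of all TPM in the 14 libraries.

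The very top of that order rests on short entries. The highest, rpl4101, encodes ribosomal protein L41 in 78 bases, and its effective length was 8.77 to 30.8 bases, so its TPM ran from 8579 to 78269 over 14 libraries. Among entries of at least 300 bases the order was gpm1, rpl3401, rpl26, rpl14, rpl31, rpl42, rpl22, ubi3, rpl35 and fba1, and 1 of these 10 was also in the list of all lengths. By read count, where long mRNAs weigh more, the single highest genes were glycolytic, while ribosomal protein genes still made up 29 of the top 50. The enolase gene eno101 had the highest median, at 11496 CPM, followed by fba1 (aldolase, 11137 CPM), tdh1 (glyceraldehyde-3-phosphate dehydrogenase, 8893 CPM), gpm1 (7789 CPM) and pdc101 (pyruvate decarboxylase, 6961 CPM). The elongation factor genes tef101 and tef103 followed at 6691 and 6058 CPM, and rps102 was the highest ribosomal protein gene by count, at 4720 CPM (median over 15 libraries). The 17 genes of the glycolysis and fermentation list summed to 51279 to 75794 CPM in the 14 libraries, against 10037 CPM in wt-expD replicate 3. The ribosomal protein genes summed to 155970 to 317100 CPM in the 14 libraries.

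Most antisense entries were near 0 in WT cells. The median entry had 0.218 TPM, 764 of the 5112 had a median of 0 over 14 libraries, and 992 (19.4%) reached 1 TPM and 121 (2.37%) reached 10 TPM. A count was present in every one of the 14 libraries for 1254 antisense entries (24.5%), compared with 4791 sense entries (93.7%), and 67 antisense entries had no count in any of them. The antisense signal was concentrated: the 50 highest entries by count held 21.4% of all antisense counts. Across the 5112 genes the sense and antisense medians were nearly unrelated (Spearman 0.0785, as a description across genes of the same libraries), and in 215 genes the antisense median exceeded the sense median.

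Most of the antisense signal lay where another gene is annotated on that strand. The 1922 genes (37.6%) whose RefSeq span overlaps a protein-coding gene on the opposite strand held 57.0% to 66.6% of antisense counts in the 14 libraries. The 2672 genes (52.3%) that overlap only non-coding annotation held 27.4% to 34.7%, and the 518 genes with nothing annotated opposite held 5.91% to 8.25%. An antisense entry over such a gene can therefore draw reads from the mRNA of the neighbour, and the 2 sources cannot be told apart in these tables. All of the 10 highest antisense entries by TPM, 45 of the top 50 and 98 of the 121 entries of at least 10 TPM (81.0%) lay over a gene that overlaps an opposite protein-coding gene.

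The highest antisense entry was SPACUNK4.20.rc, which lies on the strand of the overlapping gor1, a glyoxylate reductase gene. It had 342 and 285 TPM in wt-expD replicates 1 and 2 and 8.90 TPM in replicate 3, 521 to 599 TPM in wt-expC, 305 to 417 TPM in wt-expB, 199 to 243 TPM in wt-expA-b2 and 213 to 453 TPM in wt-expA-b1. In TPM the wt-expC libraries were all above the other 12, and SPACUNK4.20 itself had a sense median of 3.15 TPM. In CPM the entry was highest in wt-expB, with 36.8 ± 1.31 in wt-expD (n = 2), 58.9 ± 5.14 in wt-expC, 75.3 ± 11.9 in wt-expB, 38.2 ± 3.26 in wt-expA-b2 and 52.9 ± 13.8 in wt-expA-b1 (SD, n = 3 each), so the order of the groups depended on the unit. Counts at gor1 were highest in wt-expC, with 542 ± 54.6 CPM, and averaged 475 ± 60.5 CPM in wt-expB (SD, n = 3 each).

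Next came rpr2.rc, on the strand of spc1, with a median of 151 TPM over the 15 libraries. It had 268 and 240 TPM in wt-expD replicates 1 and 2 (75.1 TPM in replicate 3), 151 to 167 TPM in wt-expC, 79.8 to 122 TPM in wt-expB, 138 to 155 TPM in wt-expA-b2 and 142 to 199 TPM in wt-expA-b1. The third, smp1.rc, lies on the strand of rcf1 and had a median of 112 TPM. It was 31.9 to 37.3 TPM in wt-expB and between 52.5 and 326 TPM in the other 11 libraries of the 14. In TPM the wt-expB libraries lay below the other 11 of the 14 for both entries. In CPM this held for smp1.rc, at 6.41 to 7.54 in wt-expB, but rpr2.rc had 41.7, 38.8 and 44.4 CPM in wt-expC and 43.9, 49.7 and 34.0 CPM in wt-expB, which overlap.

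SPBC1347.14c.rc lies on the strand of sro1, a gene of the Sty1 stress list, and both were highest in wt-expC and next in wt-expB. The entry averaged 38.8 ± 1.38 CPM in wt-expD (n = 2), 83.9 ± 13.8 CPM in wt-expC, 72.8 ± 25.4 CPM in wt-expB, 27.6 ± 3.76 CPM in wt-expA-b2 and 31.9 ± 7.43 CPM in wt-expA-b1 (SD, n = 3 each). The sro1 mRNA averaged 16.0 ± 2.15 CPM in wt-expD, 46.7 ± 9.26 in wt-expC, 42.4 ± 5.25 in wt-expB, 10.0 ± 1.64 in wt-expA-b2 and 9.91 ± 1.15 in wt-expA-b1. Sense counts of SPBC1347.14c itself were at most 0.217 CPM as a group mean. The other members of the top 10 are given with a gene on their own strand. They were SPCC4G3.20.rc (cue1, 104 TPM), SPAC8E11.06.rc (alp31, 99.9 TPM) and min8.rc (56.4 TPM). Then came SPAC7D4.08.rc (trx1, 51.2 TPM), apc14.rc (omt2, 49.2 TPM) and cum1.rc (iss1, 48.3 TPM). SPAC8E11.06.rc was at 0 in wt-expA-b1 replicate 2, the shallowest library, and at 420 TPM in wt-expD replicate 1.

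Where nothing is annotated opposite, the highest antisense entries were tam8.rc (median 40.4 TPM), new25.rc (34.5 TPM) and cyt2.rc (30.2 TPM). The gene cyt2 encodes an enzyme that attaches haem to cytochrome c1. Its antisense entry had 47.3 and 39.7 TPM in wt-expD replicates 1 and 2 (2.70 TPM in replicate 3), 30.4 to 38.7 TPM in wt-expC, 15.1 to 21.7 TPM in wt-expB, 30.2 to 36.3 TPM in wt-expA-b2 and 17.3 to 27.1 TPM in wt-expA-b1. In TPM the libraries of wt-expB and wt-expA-b1 were all below those of the other 3 groups, wt-expD replicate 3 aside. In CPM wt-expA-b1 overlapped wt-expC, with 30.2 CPM in wt-expA-b1 replicate 2 and 29.9 CPM in wt-expC replicate 2.

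Ranking by count changed the antisense order wholly: none of the top 10 by CPM was in the top 10 by TPM. The order by CPM began with mal1.rc (on the strand of urh1, median 116 CPM), trs130.rc (81.6 CPM) and spo6.rc (on the strand of lam2, 73.4 CPM). Behind them were mpf1.rc (69.2 CPM) and mug28.rc (on the strand of mrp17, 62.7 CPM). The genes spo6, mug28, mug62 and meu7, all in this list of 10, are known for roles or induction in meiosis. Of the 110 genes named mug or meu, for meiotic expression, 41 (37.3%) had an antisense median of at least 1 TPM, and 9 reached 10 TPM, beside the 19.4% and 121 of all genes.

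The reverse complements of non-coding transcripts were higher still, and 3 of the 5 highest overlap a protein-coding gene, by annotated span, on its own strand. SPNCRNA.1711.rc led at a median of 552 TPM, followed by SPNCRNA.1261.rc (over rps20, 534 TPM), SPNCRNA.114.rc (364 TPM), SPNCRNA.1594.rc (over rpl1801, 348 TPM) and SPNCRNA.957.rc (over rbm8 and tef102, 341 TPM). Such an entry reads the same strand as the coding gene it overlaps, so reads of that gene can be assigned to either entry.

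The steadiest antisense entries were sought among the 121 with a median of at least 10 TPM over 14 libraries, by the SD of log2(TPM + 0.5) over those libraries. The steadiest was meu7.rc, antisense to an alpha-amylase gene, with an SD of 0.184. It had 8.32 to 13.9 TPM in the 14 libraries, a mean of 10.5 ± 1.45 TPM, and 1.18 TPM in wt-expD replicate 3. Counting error alone gives an SD of about 0.0941 at its depth. It is the only 1 of the 10 steadiest entries whose gene has no protein-coding gene opposite, though other annotation lies there.

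The second was spo6.rc, antisense to a regulatory subunit of a meiotic kinase and on the strand of lam2. It had an SD of 0.184 and 18.8 to 31.5 TPM. It averaged 23.7 ± 1.78 TPM in wt-expD without replicate 3 (n = 2), 27.4 ± 0.874 in wt-expC, 21.8 ± 2.53 in wt-expB, 26.9 ± 1.65 in wt-expA-b2 and 26.3 ± 4.77 in wt-expA-b1 (SD, n = 3 each). Then followed rnh202.rc (SD 0.192), SPCC1919.07.rc (0.218), rmi1.rc (0.229), rpa34.rc (0.235), mug28.rc (0.236), med8.rc (0.245), srp68.rc (0.259) and SPBC557.05.rc (0.261). The genes encode, among others, a subunit of ribonuclease H2 (rnh202), a partner of a RecQ helicase (rmi1), a subunit of RNA polymerase I (rpa34), a Mediator subunit (med8) and a signal recognition particle subunit (srp68). Just outside the list was mde5.rc (0.292), and the least steady of the 121 was mug114.rc (3.17). A small SD is not a lack of difference between groups. In the edgeR F test over 14 libraries, 96 of the 121 (79.3%) differed among the 5 groups at an adjusted p under 0.05. Of the 10 steadiest, all but rnh202.rc, SPCC1919.07.rc and med8.rc did, with an adjusted p of 0.0105 for meu7.rc and 4.68e-06 for srp68.rc.

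The most abundant of the steady entries was rpa34.rc, on the strand of sme1, which encodes a core splicing protein. It lay between 34.4 and 60.3 TPM and averaged 53.9 ± 10.9 TPM in wt-expA-b1 and 39.5 to 40.9 TPM as the mean of each of the other 4 groups. In wt-expD replicate 3 all 10 entries were lower than their 14-library mean of log2(TPM + 0.5), by 0.817 for srp68.rc and up to 3.18 for rpa34.rc.

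**Figure D2:**
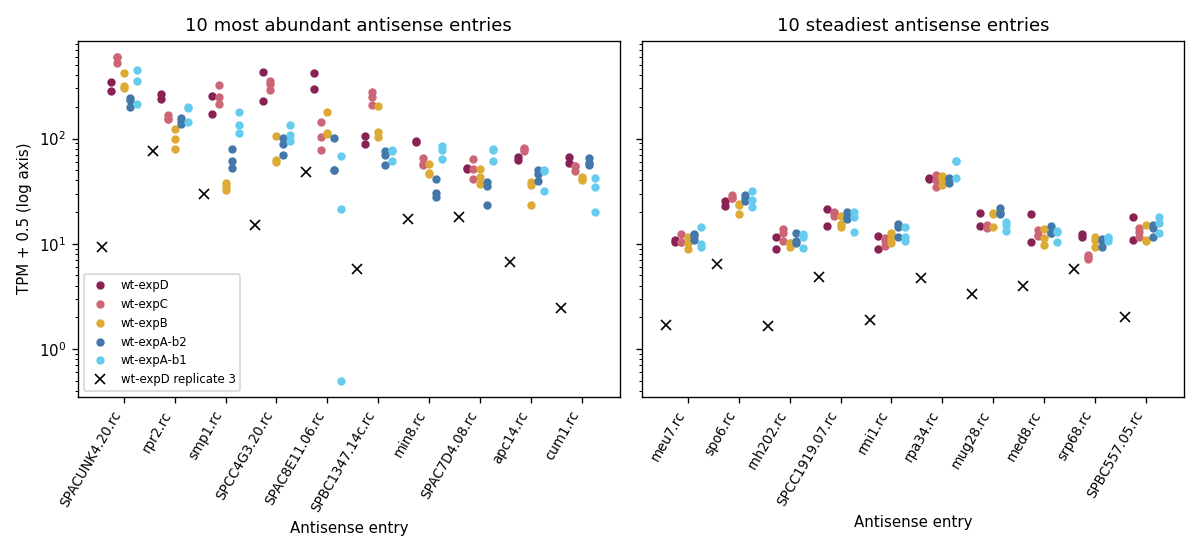
TPM + 0.5 (log axis) of the 10 most abundant (left) and the 10 steadiest antisense entries (right), 1 point per library coloured by group, with wt-expD replicate 3 as a cross. The abundant entries spread up to several-fold between groups, for example 31.9 to 326 TPM for smp1.rc, while the steady entries stay within 2.05-fold over 14 libraries, and the crosses lie below the points in every column except that of SPAC8E11.06.rc.

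At a matched level, the spread of all antisense entries over the libraries lay near that of sense entries. Entries over genes with nothing annotated opposite spread more at the lower levels. Between 10 and 20 TPM, the median SD of log2(TPM + 0.5) over 14 libraries was 0.498 for 76 antisense entries and 0.600 for 1032 sense entries. Between 20 and 50 TPM it was 0.523 for 35 antisense and 0.525 for 1305 sense entries, and at 50 TPM and above 0.542 for 10 antisense and 0.428 for 1590 sense entries. The antisense entries over genes with nothing annotated opposite had a median SD of 0.985 between 5 and 10 TPM (n = 20), against 0.646 for 586 sense entries. Between 10 and 20 TPM it was 0.673 for these antisense entries (n = 8). Antisense entries between 10 and 20 TPM were shorter and rested on fewer reads, with a median of 89.2 counts against 286 for sense entries.

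Although strain and medium were the same by label, most genes differed between the WT experiments. In a fit of 14 libraries (edgeR quasi-likelihood F test, Benjamini-Hochberg over 9795 entries), 4441 of 4933 protein-coding genes tested (90.0%) and 1265 of 2523 antisense entries (50.1%) differed among the 5 groups at an adjusted p under 0.05. The range of group means exceeded 2-fold for 2742 of the genes called (55.6% of those tested) and 4-fold for 553 (11.2%), whereas the median SD within groups was 0.193 on the log2 scale. With wt-expD replicate 3 included, 2035 of 4924 genes (41.3%) and 744 of 2166 antisense entries (34.3%) were called. The 10 pairs of groups, which share libraries, had between 1526 (wt-expD over wt-expA-b2) and 3357 genes called (wt-expC over wt-expB). The count of wt-expD over wt-expA-b2 was 694 without wt-expD replicate 1 and 1340 without replicate 2, and that of wt-expD over wt-expB was 1482 without replicate 1 and 2240 without replicate 2, beside 2385 with both. The remaining library of wt-expD is then assumed to vary like the other groups.

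Genes that glucose represses varied widely between the experiments. Fission yeast shuts off transporters and enzymes for poor carbon sources while glucose is plentiful and switches them on as it runs low. All 9 genes of that list differed among the groups in the 14-library and the 15-library fit, beside 90.0% and 41.3% of all genes, and 8 of them by over 4-fold, beside 11.2%. All 9 were higher in wt-expC than in wt-expB (median log2 fold change 6.95), beside 39.0% of all genes higher and 29.1% lower in that pair. The group mean was highest in wt-expC for 6 members and lowest in wt-expB for 6, beside 1288 and 1341 of all 4933 genes tested. As each library is RNA of a whole culture, more cells expressing a gene and more RNA per cell cannot be told apart.

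The high-affinity hexose transporter gene ght5 had 590.5 and 683 CPM in wt-expD replicates 1 and 2 (60.8 CPM in replicate 3) and 1769, 1628 and 2354 CPM in wt-expC. It had 13.5, 13.7 and 10.0 CPM in wt-expB, 823, 838 and 712 CPM in wt-expA-b2, and 1208, 1532 and 1377 CPM in wt-expA-b1. No library of any of these groups overlapped another group, and wt-expB stood lowest by over an order of magnitude. The log2 fold change of wt-expC over wt-expB was 6.95 (SE 0.152, edgeR adjusted p = 2.46e-12, n = 3 each).

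The invertase gene inv1, whose product splits sucrose outside the cell, had 1340, 1187 and 1516 CPM in wt-expC, against 4.85, 4.04 and 2.47 CPM in wt-expB. It had 94.2 and 216 CPM in wt-expD replicates 1 and 2, 133 to 152 CPM in wt-expA-b2 and 1049 to 1510 CPM in wt-expA-b1. Thus wt-expC and wt-expA-b1 overlapped for inv1, and wt-expB was again far below (log2 fold change of wt-expC over wt-expB 8.16, SE 0.321, edgeR adjusted p = 1.07e-10). The transporter gene ght1 had 161, 171 and 168 CPM in wt-expC, against 0.416, 0.671 and 0.346 CPM in wt-expB, and gld1, for a glycerol dehydrogenase, 153, 167 and 197 CPM against 0.808, 0.984 and 0.899 CPM.

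Not every member followed that order. The gluconeogenesis gene fbp1 was highest in wt-expA-b1, at 25.8 to 29.2 CPM, with 13.3 to 20.2 CPM in wt-expC and 0.281 to 4.27 CPM in wt-expB. The transporter gene ght8 was highest in wt-expA-b2, at 1352 to 1442 CPM, and lowest in wt-expA-b1, at 338 to 385 CPM. The transporter gene ght6 was measurable in wt-expC, at 22.5, 25.6 and 31.0 CPM, and at most 1.37 CPM in each of the other 12 libraries.

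**Figure D3:**
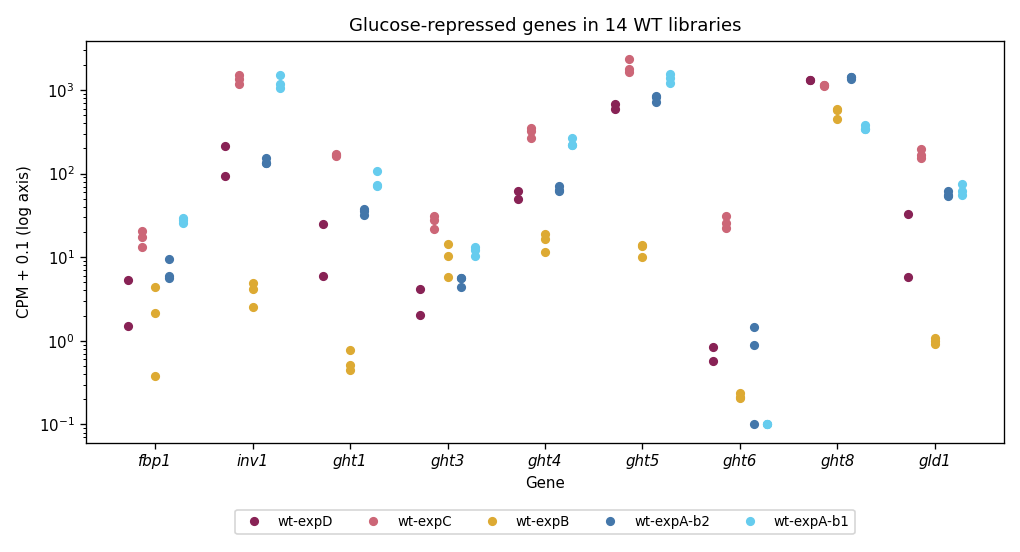
CPM + 0.1 (log axis) of the 9 glucose-repressed genes in the 14 WT libraries, 1 point per library, coloured by group (wt-expD, wt-expC, wt-expB, wt-expA-b2 and wt-expA-b1 from left to right within a gene). The mean of wt-expB is the lowest for 6 genes, beside 1341 of all 4933 genes tested. For ght5 it is 10.0 to 13.7 CPM there and 590.5 to 2354 CPM in the other 11 libraries.

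Outside that list, the widest ranges of group means among all protein-coding genes were those of wwm3 and mug108, which like ght5 were highest in wt-expC and lowest in wt-expB. In wt-expD replicates 1 and 2, wwm3 had 312 and 349 CPM, in wt-expC 718 to 797 CPM, in wt-expB 0.219 to 0.943 CPM, in wt-expA-b2 64.9 to 77.9 CPM and in wt-expA-b1 135 to 306 CPM. Its log2 fold change of wt-expC over wt-expB was 10.1 (SE 0.368, edgeR adjusted p = 3.6e-11), and its range of group means, 9.62 on the log2 scale, was the widest of the genes averaging at least 10 CPM. For mug108, which overlaps rga3 on the opposite strand, wt-expC had 180 to 214 CPM and wt-expB 0 to 0.539 CPM. The gene gcd1, annotated as a glucose-6-phosphate dehydrogenase gene, had 261 to 314 CPM in wt-expC and 1.80 to 3.23 CPM in wt-expB. For the 10 genes with the widest ranges the adjusted p of the F test was at most 2.52e-05 in 14 libraries and 0.00597 in 15.

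Other lists differed in other orders of the experiments. The starvation and stress lists were higher in wt-expC than in wt-expB: of 8 nitrogen starvation genes 6 rose and none fell (median log2 fold change 1.93), and of 11 tested Sty1 and Atf1 stress genes 8 rose and none fell (0.727), beside 39.0% of all genes higher in that pair. The nitrogen-starvation amino acid permease gene isp5 had 161, 175 and 302 CPM in wt-expC, against 14.8, 19.9 and 20.9 CPM in wt-expB. The meiosis regulator gene mei2 had 62.4, 57.4 and 82.2 CPM in wt-expC, against 2.15, 4.48 and 5.51 CPM in wt-expB. Every one of the 8 and of the 11 differed among the 5 groups, beside 90.0% of all genes.

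Ribosomal protein genes ran the opposite way: 137 of 139 were lower in wt-expC than in wt-expB and none higher (median log2 fold change -1.12, beside 0.124 for all genes). Of the 139, 114 were highest in wt-expB, beside 936 of all 4933 genes tested. The counts lower and higher in that pair were 137 and 0 under each of 3 scalings of the libraries. Ribosomal protein entries are short, and short genes in general were lower in that pair: in the shortest quintile of genes the median log2 fold change was -0.414, and -0.292 for the 886 of them that encode no ribosomal protein, while in the longest quintile it was 0.586. The part of length in the ribosomal result was not tested. Histone genes were also lower in wt-expC than in wt-expB, 9 of 10 with none higher (median -1.06), and so were 4 of 7 translation elongation genes with none higher, beside 29.1% of all genes lower in that pair. Of the shortest quintile without ribosomal protein genes, 45.0% were lower. The part of length in these 2 lists was not tested either.

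Heat shock genes split between groups. The Hsp70 gene ssa2 had 1576 to 1606 CPM in wt-expC and 6938, 7015 and 7197 CPM in wt-expB, and 836 to 2200 CPM in the other 8 libraries of the 14. The chaperone gene hsp90 was likewise highest in wt-expB, at 4878 to 5464 CPM, against 1054 to 2280 CPM in the other 11 libraries of the 14. In contrast the small heat shock gene hsp16 was highest in wt-expA-b1, at 1648 to 3346 CPM, and had 83.6 to 190.5 CPM in wt-expB. The metallothionein gene zym1, in the stress list, was also highest in wt-expA-b1, at 311 to 474 CPM, against 19.6 to 108 CPM in the other 11 libraries of the 14.

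The G1/S genes of the MBF factor, which peak as DNA replication begins, were highest in wt-expA-b1 for 6 of 9 members. Of all 4933 genes tested, 1148 were highest there. The ribonucleotide reductase gene cdc22 had 805, 1095 and 1282 CPM there, against 232 to 453 CPM in the other 11 libraries of the 14. All 3 uracil-regulated genes were also highest in wt-expA-b1. Of these, urg1 spread within groups as well, with 407 and 113 CPM in wt-expD replicates 1 and 2 and 482, 1177 and 1531 CPM in wt-expA-b1.

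All 11 iron uptake genes differed among the groups, beside 90.0% of all genes. The group mean was highest in wt-expD for 6 of them and lowest there for 2, beside 1075 and 687 of all 4933 genes tested. The ferric reductase gene frp1 had 886 and 176 CPM in wt-expD replicates 1 and 2 (43.6 CPM in replicate 3), against 34.2 to 137 CPM in the other 12 libraries. The siderophore transporter gene str3 had 156 and 26.9 CPM in wt-expD replicates 1 and 2 and 13.7, 107 and 18.2 CPM in wt-expB, and at most 5.17 CPM in wt-expC, wt-expA-b2 and wt-expA-b1. The wt-expD and wt-expB values therefore overlapped, and a single library was high in each. The acid phosphatase gene pho1 was lowest in wt-expB, at 48.8, 49.5 and 61.0 CPM, with 419 to 551 CPM in wt-expC and 770 to 812 CPM in wt-expA-b2.

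Among antisense entries called in the F test, the widest ranges were those of mug114.rc, mal1.rc, abz2.rc, php2.rc and SPAC2F3.07c.rc. The gene mal1 encodes maltase, and its antisense entry lies on the strand of urh1. That entry had 529, 451 and 527 CPM in wt-expC, against 12.4, 11.4 and 8.79 CPM in wt-expB. It had 102 and 59.5 CPM in wt-expD replicates 1 and 2, 115 to 117 CPM in wt-expA-b2 and 132 to 188 CPM in wt-expA-b1, so wt-expC lay above and wt-expB below all other libraries of the 14 (log2 fold change of wt-expC over wt-expB 5.21, SE 0.178, edgeR adjusted p = 1.23e-11). The urh1 mRNA did not follow that order, with 105 ± 4.43 CPM in wt-expC and 88.5 ± 18.6 CPM in wt-expB (SD, n = 3 each). In the sense direction mal1 had 6.06 CPM in wt-expC and 17.6 CPM in wt-expB as group means. It also overlaps annotation other than urh1 on the opposite strand, whose level was not compared.

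The entry mug114.rc had 125 to 156 CPM in wt-expC, against 0.135, 0 and 0 CPM in wt-expB, where a count of 0 allows up to 0.328 and 0.337 CPM. It had 30.1 and 11.9 CPM in wt-expD replicates 1 and 2, 16.4 to 19.7 CPM in wt-expA-b2 and 24.2 to 54.2 CPM in wt-expA-b1. The order of the groups matched that of ght5 at its ends, with wt-expC highest and wt-expB lowest. On the opposite strand mug114 overlaps no protein-coding gene but does overlap other annotation, whose level was not compared. SPAC2F3.07c.rc had 37.9 ± 2.14 CPM in wt-expC and 3.37 ± 1.62 CPM in wt-expB (SD, n = 3 each). The sucrose transporter gene sut1, on the strand of that entry, had 179 ± 24.3 and 26.3 ± 5.04 CPM there (SD, n = 3 each). In the other direction, abz2.rc had 3.42 ± 0.981 CPM in wt-expC and 41.9 ± 7.70 CPM in wt-expB. The gene rps3002, on the strand of abz2.rc, had 124 ± 2.05 and 548 ± 45.2 CPM.

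Some genes with the widest ranges overlap, by annotated span, a non-coding transcript on the opposite strand. Its .rc entry reads the strand of the gene, so reads of a shared stretch can be assigned to either entry. Overlap of the entry sequences themselves was not checked. The gene ndk1, for nucleoside diphosphate kinase, had 4.06 and 24.1 CPM in wt-expD replicates 1 and 2, 0 to 2.55 CPM in wt-expC, 25.1 to 32.1 CPM in wt-expB, 22.6 to 27.4 CPM in wt-expA-b2 and 38.0 to 49.0 CPM in wt-expA-b1. Added to SPNCRNA.629.rc, which overlaps it by span on the same strand, its level was 104 to 315 CPM. The range of group means of log2(CPM + 0.5) was then 1.13 instead of 5.51. The range fell likewise to 2.00 from 6.09 for rex1, a ribonuclease gene, with SPNCRNA.998.rc added, and to 1.21 from 5.49 for tom6 with SPNCRNA.840.rc added. The partner entries are the more abundant and had ranges of 1.20 (SPNCRNA.629.rc), 1.81 (SPNCRNA.998.rc) and 0.879 (SPNCRNA.840.rc) by themselves, so a narrower range of the sum follows from adding them, and the part of read assignment in the ranges of ndk1, rex1 and tom6 was not tested. For ght1 the sum with SPNCRNA.1121.rc left the range at 7.56, beside 7.43 alone.

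Such partners also occurred among genes that varied within a group. The pseudouridine synthase gene cbf5 had 0.470, 13.2 and 71.0 CPM in wt-expA-b1 and 0.429 CPM in wt-expD replicate 3, while its sum with SPNCRNA.1051.rc stayed between 404 and 893 CPM in the 14 libraries. The SD within groups of log2(CPM + 0.5) was 1.5 for cbf5 alone, 0.108 for the partner alone and 0.0641 for the sum. For SPAC8C9.04 it was 1.52 alone, 0.135 for SPNCRNA.925.rc alone and 0.0808 for the sum. Of all genes averaging at least 10 CPM, 737 (16.3%) have such a partner. They made up 24 of the 50 genes with the largest SD within groups and 15 of the 50 with the widest range, and the number among the 737 with a range over 4-fold was 87 after summing and 139 before, a fall that adding a second entry can give by itself.

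**Figure D4:**
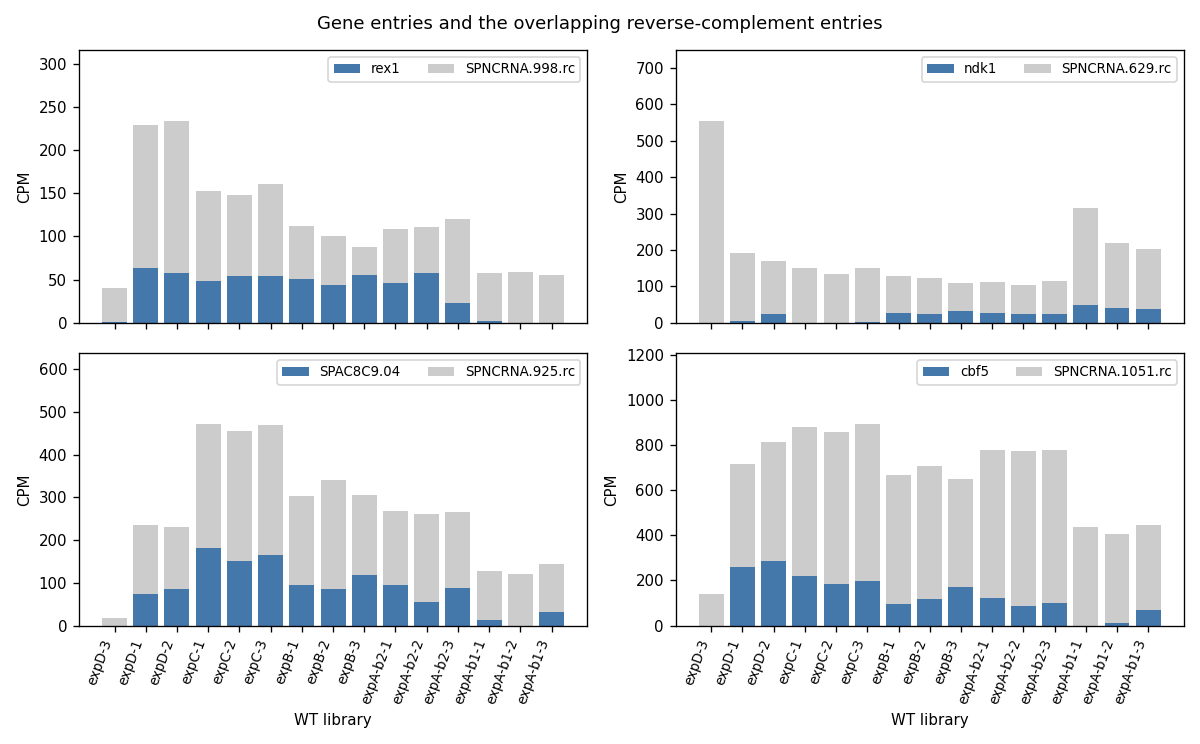
CPM of 4 genes (blue) stacked on the overlapping reverse-complement entry of a non-coding transcript (grey) in each of the 15 WT libraries. The division between the entries differs from library to library, as for cbf5 in wt-expA-b1, where the gene holds 0.470 to 71.0 CPM and the stack changes far less.

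The other genes with the largest SD within groups belong to families with near-identical copies. The SD of tlh2, a telomere-linked RecQ helicase gene, was 1.97 in the fit, that of the fluoride exporter gene fex2 1.91 and that of the retrotransposon Tf2-13 1.85. Summed over 13 Tf2 entries the SD was 0.180, with 779 and 643 CPM in wt-expD replicates 1 and 2, 575 to 597 CPM in wt-expC, 293 to 465 CPM in wt-expB, 358 to 383 CPM in wt-expA-b2 and 207 to 240 CPM in wt-expA-b1. Summed over the fex genes it was 0.143. The tlh genes still spread after summing, with an SD of 1.29 and 60.3, 16.6 and 2.60 CPM in wt-expB.

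In wt-expD replicate 3, long mRNAs were scarce relative to short ones. Against replicates 1 and 2, in log2 CPM with the TMM scaling of the fits, 835 of 4484 genes were over 2-fold higher and 2516 over 2-fold lower. From the shortest to the longest quintile of genes the median difference was 1.25, -0.43, -1.34, -2.15 and -2.49. The TMM scaling raised these differences by a median of 1.44. In log2(CPM + 0.5) without it, 346 genes were over 2-fold higher and 3422 over 2-fold lower, and the quintile medians were -0.215, -1.88, -2.76, -3.54 and -3.89, so the order by length was the same on both scales while the direction of the shortest quintile was not.

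Of the 139 ribosomal protein genes, 88 were over 2-fold higher and 26 over 2-fold lower with TMM scaling, and 62 and 42 without it (medians 2.03 and 0.554). The 681 other genes of at most 600 bases had a median of 1.24 with TMM scaling and -0.223 without, beside -1.31 and -2.74 for all genes, so genes that encode no ribosomal protein also stood above the median gene. The median difference over 2166 antisense entries was 0.0633 with TMM scaling and -0.806 without.

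The highest gene against replicates 1 and 2 was ubi5, for a ubiquitin and ribosomal protein S31 fusion, with 20063 CPM in replicate 3 and a mean of 1782 CPM in replicates 1 and 2. Next were rps2801, SPCC70.08c, rpl22 and rps21, each between 9.38-fold and 10.6-fold higher. The lowest were adh1, SPAPB24D3.07c, mid2, wis4 and met10, all at 0 in replicate 3. For the alcohol dehydrogenase gene adh1, which had 1839 to 5108 CPM in the other 14 libraries, this was at least 2660-fold lower than the mean of 4046 CPM in replicates 1 and 2, taking a floor of 3 counts (1.52 CPM). Of 4572 genes averaging at least 10 CPM, 135 (2.95%) were at 0 in this library and 0 to 6 in each of the others. Each of the lowest genes named here overlaps an annotation on the opposite strand, as 89.9% of all protein-coding genes do. Reads of such a gene can be assigned to the .rc entry of that annotation. Whether this bears on the zeros was not tested.

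A milder shift with length separated the groups. In wt-expC the median gene of the shortest quintile differed from the mean of the 5 groups by -0.248 and that of the longest quintile by 0.352. In wt-expB these medians were 0.177 and -0.254, and in wt-expA-b1 0.205 and -0.419 (log2 scale, TMM-scaled). Whether the length shift bears on the calls between WT groups was not tested.

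**Figure D5:**
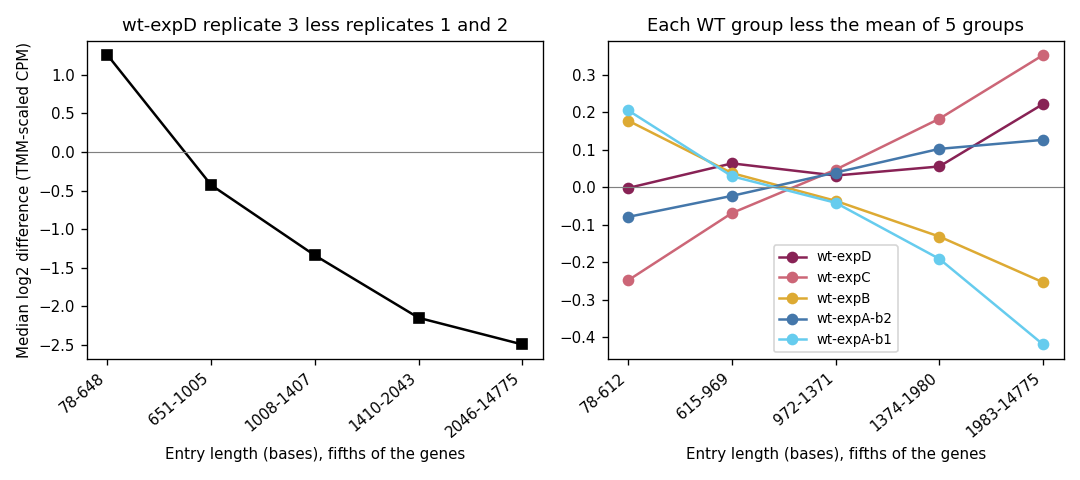
Median log2 difference in TMM-scaled CPM (y axis) by quintiles of entry length (x axis, bases). Left, wt-expD replicate 3 less the mean of replicates 1 and 2, from 1.25 in the shortest to -2.49 in the longest quintile. Right, each WT group less the mean of the 5 groups, where wt-expC rises with length, to 0.352, and wt-expB and wt-expA-b1 fall, to -0.254 and -0.419.

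The abundant WT antisense entries were then read in a remodeler mutant that was no part of their choice. The 50 antisense entries with the highest median TPM in the WT libraries outside experiment B were tested in experiment B, hrp1Δhrp3Δ over WT, by edgeR's quasi-likelihood test with Benjamini-Hochberg adjustment over all entries. Of all antisense entries tested in hrp1Δhrp3Δ, 2163 of 3306 were higher (65.4%) and 109 lower (3.30%), with a median log2 fold change of 1.73. Of the 50, 49 passed the filter on low counts (mug114.rc did not), 5 were higher and 7 lower, and the median was -0.0315. That filter used all libraries of experiment B, so an entry near 0 in WT could pass by its level in a mutant. Of the 3306, 1938 were under 0.5 TPM in the WT libraries outside B, and 80.5% of those were higher. Without the filter, 2358 of 5006 antisense entries were higher and 121 lower (median 1.495). Of the 50, 4 were then higher and 7 lower (median -0.0552). Of the top 50 by TPM over all 15 WT libraries, 45 lay over a gene that overlaps an opposite protein-coding gene. Of all antisense entries, 37.6% did. Such entries can count mRNA of the overlapping gene, which cannot be told apart from antisense RNA here. The direction of the few calls depended on the scaling: with factors from protein-coding entries alone, 15 were higher and 1 lower with a median of 0.192, and the median of all antisense entries was 1.96.

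By their level in the WT libraries outside B, 265 of 620 entries between 1 and 5 TPM were higher in hrp1Δhrp3Δ (42.7%), 28 of 156 between 5 and 10 TPM (17.9%), 11 of 79 between 10 and 20 TPM (13.9%) and 4 of 44 at 20 TPM and above (9.09%). In the same order of levels 43, 28, 11 and 7 entries were lower. These shares are a description across entries. Most entries of at least 10 TPM over the 14 libraries (98 of 121) can count mRNA of an overlapping gene. The largest rise in the list was that of rps2802.rc, with 5.77 ± 0.610 CPM in hrp1Δhrp3Δ and 2.13 ± 0.916 CPM in WT (SD, n = 3 each, log2 fold change 1.04, edgeR adjusted p = 0.0103). SPACUNK4.20.rc, the highest WT entry, had 98.5, 75.1 and 88.3 CPM in hrp1Δhrp3Δ and 69.6, 89.0 and 67.2 CPM in WT, which overlap (edgeR adjusted p = 0.283).

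Of the steady entries, rmi1.rc rose most: its mean was 37.5 ± 2.60 CPM in hrp1Δhrp3Δ, against 14.6 ± 2.09 CPM in WT, a log2 fold change of 1.00 (edgeR adjusted p = 8.61e-06). The entry rnh202.rc was also called higher (0.469, edgeR adjusted p = 0.00315). Called lower were rpa34.rc (-0.455, edgeR adjusted p = 0.00017) and meu7.rc (-0.308, edgeR adjusted p = 0.00891), although meu7.rc had 53.6 CPM in hrp1Δhrp3Δ and 51.3 CPM in WT. No other steady entry passed the test. Fold changes carry the TMM scaling of the libraries, and CPM values do not. The entry spo6.rc had 76.4 ± 5.67 CPM in hrp1Δhrp3Δ and 67.6 ± 6.88 CPM in WT, which did not pass the test (adjusted p = 0.0770). For comparison, the study examined 6 genes as antisense loci (orc4, taf5, rap1, atg9, crt10 and spb70). Their antisense entries had medians of 0 to 0.277 TPM over the 14 WT libraries, those of wt-expB included. The entry orc4.rc, antisense to a subunit of the origin recognition complex, had 88.0 ± 7.54 CPM in hrp1Δhrp3Δ and 2.34 ± 0.957 CPM in WT, which is 4.88 on the log2 scale of the fit (edgeR adjusted p = 1.13e-11). As these loci were chosen by the study on this kind of library, their rise is no independent evidence.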

How the data were processed

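RNA was extracted with hot acid phenol, selected for polyA and sequenced paired-end from a strand-specific kit. The authors checked reads with FastQC and quantified them with Kallisto against transcripts of ASM294v2 (Ensembl release 55) and their reverse complements, and the version of Kallisto is not given in the sources used here. The deposited tables hold expected counts, estimated per entry and not all whole, and TPM, which the authors' tool scaled to the same total in every library. Counts were rounded for edgeR 4.0.16 (limma 3.58.1, R 4.3.3). WT libraries without wt-expD replicate 3 (14) entered 1 fit with a term per group, after filterByExpr (minimum count 10, minimum total 15) and TMM scaling. A pair or group difference was called at an adjusted p under 0.05. DESeq2 1.42.0 was an alternative, and Python 3.11.15 with scipy 1.17.1 gave the permutation tests. Fold-change errors came from the pooled within-group SD. The fit was tested on simulated counts with known changes.

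Named entries were the highest by median TPM (10 sense, 10 antisense, 5 other .rc), the 10 steadiest antisense entries, the 10 genes and 5 antisense entries with the widest range of group means at a mean of at least 10 CPM, the 5 with the largest SD within groups, the 5 highest and 5 lowest in wt-expD replicate 3, and members of fixed gene lists. The members and lists were chosen with earlier results of these data known. Of the lists, the mitochondrial genome had no entry (0 matched), and differences among the 5 groups were called, beside 90.0% of all protein-coding genes, for 5 of 10 flocculin genes, 2 of 3 zinc genes, 4 of 4 thiamine genes tested, 3 of 3 phosphate genes, 11 of 11 iron uptake genes, 15 of 17 glycolysis and fermentation genes, 65 of 86 mug and meu genes, 10 of 10 histone genes and 11 of 11 heat shock genes. Names, types and overlaps came from RefSeq (ASM294v3), with 146 entries unmatched, so no coordinates or promoter sequences are given. The study's methods name 3 biological replicates per group. The replicate numbers did not pair the samples: same-numbered libraries of different groups deviated with correlations of -0.102 to 0.145.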

Additional observations from a re-analysis of the deposited data

How the results depend on the processing

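Of the ranked lists of 10, the sense list shared 1 entry with the ranking by CPM and 1 with entries of at least 300 bases (chosen after seeing the data), and the antisense list 0 and 4. The steady list shared 2 entries with each of log2 CPM and all 15 libraries. With a minimum of 20 TPM it also shared 2, spo6.rc and rpa34.rc, the only members that reach that level. With all 15 libraries the calls were 2035 genes, 744 antisense entries and 2607 genes in any pair, and by pair 672 (wt-expA-b2 over wt-expA-b1), 1094 (wt-expB over wt-expA-b1), 344 (wt-expB over wt-expA-b2), 648 (wt-expC over wt-expA-b1), 194 (wt-expC over wt-expA-b2), 1146 (wt-expC over wt-expB), 1103 (wt-expD over wt-expA-b1), 302 (wt-expD over wt-expA-b2), 483 (wt-expD over wt-expB) and 938 (wt-expD over wt-expC). Thinning every library to the shallowest left 268 antisense entries and 1567 genes for wt-expB over wt-expA-b2, as fewer counts were tested. Leaving out 1 library at a time gave 694 to 2119 genes for wt-expD over wt-expA-b2 and 1482 to 2824 for wt-expD over wt-expB, and an exact permutation p = 0.156 to 0.866 for the antisense share. For genes without annotation opposite, the share gave an exact permutation p = 0.0361 over all 15 libraries and was not tested over fewer. The list tested in experiment B had 7 calls among 25 entries and 25 among 100. Factors from protein-coding entries moved the share of genes called higher to 52.5% from 39.2% for wt-expB over wt-expA-b2 and to 53.6% from 64.3% for wt-expD over wt-expB. With replicate number as a block, 4396 genes, 1128 antisense entries and 12 entries of experiment B were called, and the block moved no count by over 1.5 times. Leaving out wt-expA-b1 replicate 1 gave a range of 7.66 for rex1, and leaving out wt-expC replicate 3 gave 7.09 for ndk1, beside 6.58 and 6.15 in the fit. The causes were not tested. Without TMM scaling (chosen after seeing the data), 346 genes were over 2-fold higher in wt-expD replicate 3, beside 835 with it. Depth limits antisense values: the shallowest library had a count for 41.7% of antisense entries and the library with the most for 88.0%.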

Other observations

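The non-coding sense entries with the highest median TPM over the 15 WT libraries were SPNCRNA.1094 (2419 TPM) and SPNCRNA.1095 (1076 TPM), beside ribosomal RNA entries at 1123 TPM and the polyadenylated non-coding transcript prl53 at 544 TPM. Of the 12 genes deleted in other strains of the study, which include hrp1, hrp3 and prf1, 11 differed among the WT groups, beside 90.0% of all genes. Their summed level was 443 to 1342 CPM in the 14 libraries. Of the 12, 10 were lowest in wt-expA-b1 and 8 highest in wt-expD, beside 1682 and 1075 of all 4933 genes tested. The longest quintile of all genes had a median of -0.419 in wt-expA-b1, 0.222 in wt-expD and 0.352 in wt-expC, against the mean of the groups (log2 scale). The part of length in the order of the 12 genes was not tested. Among antisense entries, 304 of 2523 tested were higher and 540 lower in wt-expC than in wt-expB, with a median log2 fold change of -0.253. The Sty1-pathway phosphatase gene pyp2 had 269, 278 and 272 CPM in wt-expC, against 8.08, 9.95 and 11.0 CPM in wt-expB.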
